A study of Homo sapiens with 12 samples.

Results

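Integrins and laminins, the receptors and ligands through which cells hold on to the basement membrane, were followed by RNA-seq while H1, an established line of human embryonic stem cells, differentiated. The 35 genes were chosen by symbol from the 61806 genes of the table. They comprise 25 integrin chains (17 alpha and 8 beta) and 10 laminin chains (5 alpha, 3 beta and 2 gamma). All cells were first taken to mesendoderm progenitors on Matrigel-coated wells with the WNT activator CHIR99021 in DF medium, followed by insulin. NP-IWP2 cells then stayed in the same wells (static culture) and received IWP2, an inhibitor of WNT signaling. The P-DF treatment had no IWP2: cells were dissociated with EDTA on Day 2, replated on Matrigel and left to differentiate spontaneously in DF medium. The P-IWP2 treatment combined the same passage on Day 2 with IWP2. Each of the 3 treatments had 2 libraries on Day 12 and 2 on Day 16, which makes 12 in all. P-IWP2 differs from NP-IWP2 by the passage with all that goes with it, such as dissociation, a new density and possibly the ROCK inhibitor Y27632, which the study used in its later differentiation experiments without naming these libraries. P-DF differs from NP-IWP2 by the passage and by the absence of IWP2. These parts cannot be told apart within a comparison. Nothing in the labels says that the libraries of a group came from separate cultures, so the tests measure the spread between these libraries, which may be technical.

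Integrins are heterodimers of an alpha and a beta chain, and the alpha chain largely sets the ligand. ITGA3, ITGA6 and ITGA7 make laminin receptors with ITGB1, ITGA1, ITGA2, ITGA10 and ITGA11 make collagen receptors with ITGB1, and ITGA5, ITGA8, ITGAV and ITGA2B recognize the RGD motif of fibronectin, vitronectin and similar ligands. Laminins are trimers of an alpha, a beta and a gamma chain, which form the sheet on which the basement membrane is built. The trimer of LAMA1, LAMB1 and LAMC1 is typical of early embryonic basement membranes and is the main laminin of Matrigel, LAMA2 is typical of muscle, including the heart, and LAMA4 and LAMA5 are typical of vessels and epithelia. Integrins containing ITGA7 are abundant in cardiac and skeletal muscle.

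Read counts per library summed to between 14885589 and 19176239. Levels are given as FPKM, the reads per kilobase of exon divided by the library total, and differences as log2 fold changes of TMM-normalized counts with their standard error (SE). A gene was called when its Benjamini-Hochberg adjusted p in edgeR's quasi-likelihood test was under 0.05 over all 19505 genes tested. The Day 12 library labelled P-IWP2 replicate 5 stood apart: it differed from replicate 6 by a root mean square log2 difference of 1.19, against 0.37 to 0.573 within the other 5 pairs. Cardiomyocyte markers (TNNT2, NKX2-5, ACTN2, MYH6, MYH7, TTN and RYR2) summed to 980 FPKM in it and to between 1062 and 3240 FPKM in the other 11 libraries. All 12 libraries thus carried cardiac mRNA, with 7 of 7 markers above 0. On Day 12 the sum was 2014 and 1739 FPKM in static culture and 2229 to 2311 FPKM in passaged libraries other than replicate 5. On Day 16 it was 1426 and 1062 FPKM in static culture and 2870 to 3240 FPKM in passaged cells. In P-DF over both days 6 of 7 cardiomyocyte markers were called higher, beside 14.6% of all genes. In P-IWP2 over both days 0 were called (all genes 0.4% higher and 2.07% lower). On Day 12, 0 of 7 were called in either passaged treatment. On Day 16, 3 were higher and 1 was lower in P-DF (all genes 5.39% and 9.86%). In P-IWP2, 2 were higher and 1 was lower on that day (all genes 7.15% and 9.95%). Static cultures also carried stromal markers (DCN, LUM, PDGFRA, COL1A1 and COL3A1, summed to 679 to 1215 FPKM, 5 of 5 above 0) and hepatic markers (369 to 755 FPKM, 6 of 6 above 0). In passaged cultures other than replicate 5 the stromal sum was 18.0 to 30.6 FPKM and the hepatic sum 5.71 to 20.1 FPKM. Replicate 5 held 672 FPKM of stromal and 134 FPKM of epicardial markers but only 7.88 FPKM of hepatic ones. In such bulk samples, fewer cells of a type and less RNA per cell cannot be told apart. The part of cardiac or other cells in each result was not tested.

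The upstream sequences of 3 collagen- or RGD-binding alpha chains that were lower after passaging, and of LAMA2, which was higher, are shown because each of these members was called on both days in P-DF and they moved in opposite directions. RefSeq promoters (GRCh38.p14) were found for 25 of the 35 members. The 250 bases before the start are given 5′ to 3′ on the gene's strand, for ITGA1 from chr5:52787666-52787915 (plus strand), ITGA8 from chr10:15719923-15720172 (minus), ITGA11 from chr15:68432164-68432413 (minus) and LAMA2 from chr6:128882888-128883137 (plus). Capitals mark matches on either strand to the GC box, spelled GGGCGG, to the TATA box, spelled TATAAA, to the M-CAT box of muscle promoters, spelled CATTCC, or to the site of GATA factors, spelled AGATAA.
ITGA1: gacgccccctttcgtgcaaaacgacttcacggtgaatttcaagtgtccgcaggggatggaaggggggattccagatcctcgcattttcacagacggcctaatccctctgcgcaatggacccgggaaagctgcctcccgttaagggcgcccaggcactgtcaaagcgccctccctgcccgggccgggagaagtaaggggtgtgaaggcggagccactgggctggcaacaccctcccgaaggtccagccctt
ITGA8: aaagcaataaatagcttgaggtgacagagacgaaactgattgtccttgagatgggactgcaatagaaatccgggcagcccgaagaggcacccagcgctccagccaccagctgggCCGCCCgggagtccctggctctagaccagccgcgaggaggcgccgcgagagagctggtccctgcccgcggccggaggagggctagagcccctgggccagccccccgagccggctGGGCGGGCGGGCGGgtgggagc
ITGA11: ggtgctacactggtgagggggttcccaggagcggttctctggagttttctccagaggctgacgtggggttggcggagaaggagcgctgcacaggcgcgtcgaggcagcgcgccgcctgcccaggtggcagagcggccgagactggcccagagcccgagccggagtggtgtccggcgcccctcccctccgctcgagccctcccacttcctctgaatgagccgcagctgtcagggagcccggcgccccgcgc
LAMA2: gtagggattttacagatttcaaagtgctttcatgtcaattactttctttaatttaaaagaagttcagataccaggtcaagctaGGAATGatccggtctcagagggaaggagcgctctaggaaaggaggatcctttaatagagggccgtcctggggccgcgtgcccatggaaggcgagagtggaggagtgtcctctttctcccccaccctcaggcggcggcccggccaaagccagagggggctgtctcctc
ITGA8 held 4 matches to the GC box, 3 of them overlapping next to the start, and 42.6% of the 34788 upstream regions of this length held at least 1. LAMA2 held 1 match to the M-CAT box, on the opposite strand, and 11.9% of all regions held at least 1 on either strand. TATA boxes were found in 10.8% and GATA sites in 9.21% of all regions and in none of these 4. GC content was 62.0% for ITGA1, 68.0% for ITGA8, 71.2% for ITGA11 and 53.2% for LAMA2, with a median of 58.0% over all regions. Matches are a description of letters, and those absent here say nothing about any factor.

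Of the 35 members, 29 passed the filter on low counts (19 of 25 integrin and 10 of 10 laminin chains), and 24 of these were called in at least 1 of 13 comparisons. The share of all genes called in at least 1 comparison is not given, so the 24 cannot be read as a trait of the members. In P-DF against NP-IWP2 over both days, 6 of 29 members were higher and 12 were lower, while 14.6% of all genes tested were higher and 18.9% lower. The 6 higher were ITGA6, ITGA7, ITGB3, LAMA2, LAMA4 and LAMB1. The 12 lower were ITGA1, ITGA2B, ITGA3, ITGA4, ITGA5, ITGA8, ITGA11, ITGB5, ITGB8, LAMA3, LAMA5 and LAMC3. Of these, ITGA2B, ITGA4 and LAMA3 entered the test through libraries in which they were higher than in P-DF, so their part in this count is a description. P-DF cells thus held less mRNA of the collagen-binding ITGA1 and ITGA11 and the RGD-binding ITGA5 and ITGA8, and more of the muscle laminin chain LAMA2. Of the laminin-binding chains ITGA6 and ITGA7 were higher and ITGA3 was lower. The median log2 fold change of the 29 members was -0.20, beside -0.003 over all genes, with 6 members called higher and 12 lower.

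By day, fewer members passed. On Day 12, 1 of 29 members was higher and 6 were lower in P-DF, where 0.697% of all genes were higher and 3.32% lower, and 0 were higher and 2 lower in P-IWP2, where these shares were 0.328% and 1.33%. On Day 16, 1 was higher and 5 were lower in P-DF (all genes 5.39% and 9.86%), and 5 were higher and 4 lower in P-IWP2 (all genes 7.15% and 9.95%). Over both days P-IWP2 had 0 members higher and 2 lower (ITGA11 and LAMC3), with 0.4% and 2.07% of all genes, and 12 members at an unadjusted p under 0.05. The share of all genes at that unadjusted p is not given, so the 12 cannot be read as a trait of the members. All these comparisons share the NP-IWP2 libraries. Those by day also share one estimate of the spread, to which replicate 5 adds, whereas those over both days come from separate fits of 8 libraries. Whether the counting used strand is not given in the sources used here, so reads of ITGA2, ITGA6, ITGA9, ITGB2, ITGB5, ITGB8, LAMA4, LAMA5 and LAMC1 and of antisense genes that overlap them cannot be told apart.

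**Figure D1:**
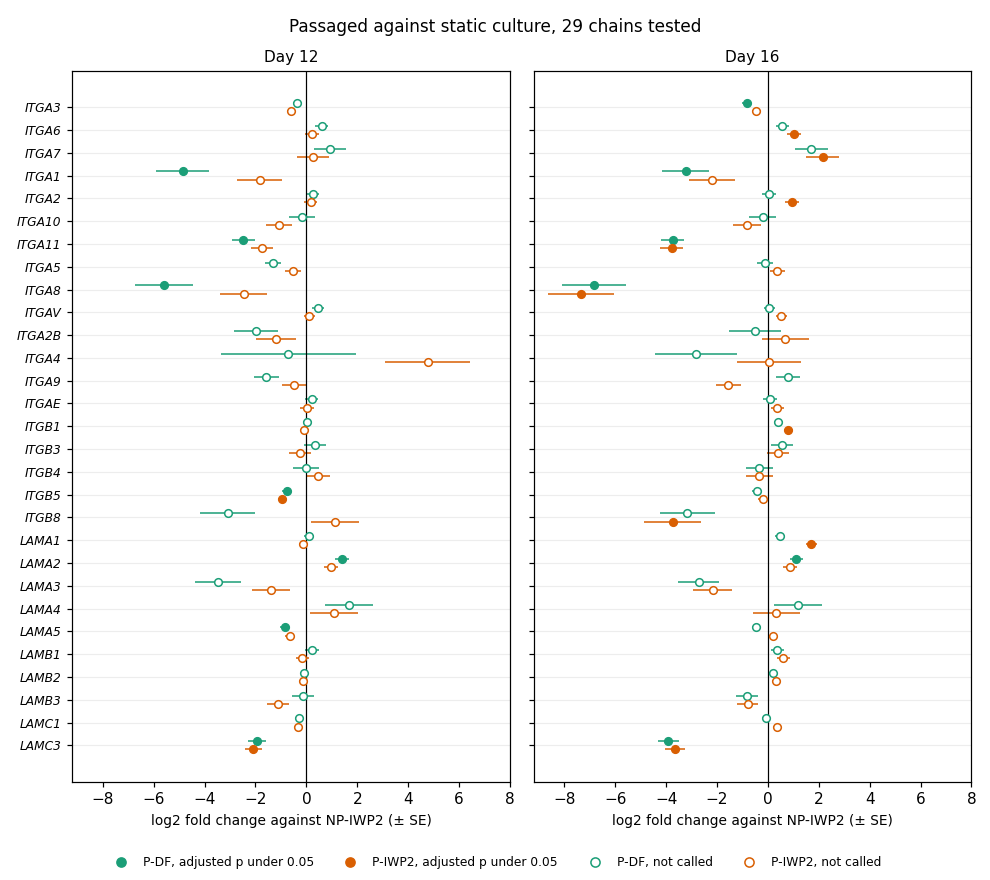
Log2 fold change (± SE) of the 29 members tested, P-DF and P-IWP2 against NP-IWP2, on Day 12 (left) and Day 16 (right), 2 libraries per group. Filled points passed an edgeR adjusted p of 0.05. ITGA8, ITGA11 and LAMC3 lie far to the left on Day 16 in both passaged treatments, and ITGA6, ITGA7, ITGB1 and LAMA1 to the right in P-IWP2.

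Leaving out replicate 5 raised the number of calls in every comparison by day, also where that library had no part. Leaving out replicate 6 of the same pair instead gave the same numbers of calls for P-DF and P-IWP2 on Day 12 and on Day 16. Equal numbers do not show that the same members were called. On Day 12, replicates 5 and 6 lay on opposite sides of static culture for ITGA7, LAMA4 and ITGB8. Of 30 members then tested (ITGB2 passed the filter as well), 16 were called on Day 12 in P-DF (4 higher and 12 lower) and 14 in P-IWP2 (4 higher and 10 lower), with 21.9% and 15.0% of 20518 genes called in either direction. On Day 16, 18 were called in P-DF (8 higher and 10 lower, beside 32.4% of all genes) and 18 in P-IWP2 (9 and 9, beside 34.8%). Over both days, P-IWP2 had 5 higher and 9 lower members without replicate 5, beside 24.0% of all genes, and 1 member called without replicate 6. Without replicate 5 the 4 members higher on Day 12 were ITGA6, ITGA7, LAMA2 and LAMA4 in both passaged treatments, where P-IWP2 is replicate 6 alone. With all libraries P-IWP2 had none, and replicate 5 lay below static culture for ITGA6, ITGA7 and LAMA4. The lower members of P-IWP2 without replicate 5 include ITGB2, on Day 16 and over both days. ITGB2 held at most 13 counts, reached in static culture, and 1 count in each Day 16 P-IWP2 library. It entered the test through libraries in which it was higher, so its call is a description.

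Several calls by day were lost when 1 library outside the Day 12 P-IWP2 pair was left out. On Day 12 in P-DF, calls held in 7 of 17 alternatives for ITGA8 and ITGB5, 9 for LAMA2, 11 for ITGA11 and 13 for LAMC3, and in P-IWP2 in 7 for ITGB5 and 14 for LAMC3. On Day 16 in P-IWP2 they held in 7 of 17 for ITGA7 and ITGB8, 8 for ITGA6 and 15 for ITGA8, and in P-DF in 13 for LAMA2 and 15 for ITGA8. The calls of these 8 members in P-DF over both days held in 16 of 16. Those of ITGA2B, ITGA4, ITGB3 and LAMB1 in P-DF over both days held in 9 of 16, and that of ITGA5 in 11.

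Among the laminin receptors, ITGA7, the main laminin-binding alpha chain of muscle (chr12:55684568-55716404, minus strand), showed the widest range. Static libraries held 7.16 and 6.74 FPKM on Day 12 and 8.24 and 5.10 FPKM on Day 16. P-DF libraries held 12.59 and 12.13 FPKM on Day 12 and 21.57 and 15.97 FPKM on Day 16. P-IWP2 libraries held 2.50 FPKM (replicate 5) and 13.48 FPKM on Day 12 and 23.39 and 25.78 FPKM on Day 16. Every passaged library apart from replicate 5 was thus above every static one. The cardiomyocyte marker sum split likewise, at 1062 to 2014 FPKM in static culture and 2229 to 3240 FPKM in these passaged libraries. It was 980 FPKM in replicate 5, and the part of cardiomyocytes was not tested. ITGA7 was higher on Day 16 in P-IWP2 (2.15 ± 0.64, 4.43-fold, edgeR adjusted p = 0.0489), and the difference of 1.71 ± 0.64 for P-DF did not pass (edgeR adjusted p = 0.1). Over both days, P-DF was higher by 1.31 ± 0.21 on the log2 scale (edgeR adjusted p = 0.0012).

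ITGA6, which serves as a laminin receptor with ITGB1 or ITGB4, was at 13.76 and 13.67 FPKM in static culture on Day 12 and at 10.19 and 10.75 FPKM on Day 16. It was at 19.61 and 19.47 FPKM in P-DF on Day 12 and at 12.76 and 13.75 FPKM on Day 16. P-IWP2 held 12.03 (replicate 5) and 19.85 FPKM and then 15.06 and 20.21 FPKM. The groups did not overlap on either day once replicate 5 was set aside. In static culture and in P-DF, FPKM were lower on Day 16 than on Day 12, and ITGA6 was not called between the days in any treatment. ITGA6 rose in P-IWP2 on Day 16 by 1.04 ± 0.27 (2.06-fold, edgeR adjusted p = 0.0299) and in P-DF over both days by 0.59 ± 0.06 (edgeR adjusted p = 0.000112). Its partner ITGB4 remained between 0.05 and 0.16 FPKM in all libraries, at 6 to 17 counts, and was not called in any comparison.

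ITGA3, the third laminin-binding chain, went the other way. It was at 8.75 and 9.58 FPKM in static culture on Day 12 and at 11.13 and 11.34 FPKM on Day 16, against 6.79, 6.63, 5.14 and 6.90 FPKM in the 4 passaged libraries of Day 12 and 5.54, 5.26, 6.99 and 6.55 FPKM in those of Day 16. No passaged library reached the lowest static one. The fall passed on Day 16 in P-DF (-0.83 ± 0.18, edgeR adjusted p = 0.015) and over both days in P-DF (-0.59 ± 0.10, edgeR adjusted p = 0.00154). In P-IWP2 on Day 16 the difference of -0.46 ± 0.17 passed only without replicate 5 (edgeR adjusted p = 0.00163, against 0.102 with all libraries).

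**Figure D2:**
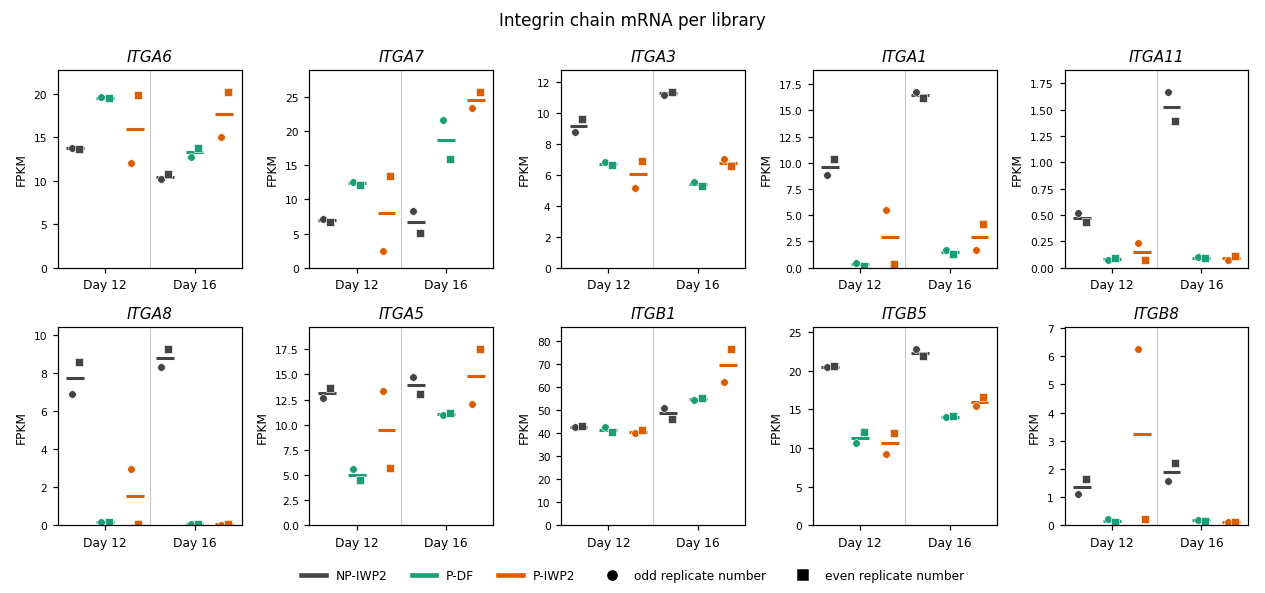
FPKM of 10 integrin chains in each library (points) with the mean of each group of 2 (short lines), on axes that start at 0. Apart from replicate 5, the round P-IWP2 point on Day 12, ITGA6 and ITGA7 are higher in passaged than in static libraries of the same day, and ITGA1, ITGA3, ITGA8, ITGA11 and ITGB5 are lower. Replicate 5 lies below static culture for ITGA6 and ITGA7 (12.03 and 2.50 FPKM) and near or above it for ITGA5 and ITGB8 (13.33 and 6.25 FPKM).

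Among the collagen receptors, ITGA1 and ITGA11 were lower in passaged cells. ITGA1 (chr5:52787916-52959209, plus strand) was at 8.83 and 10.36 FPKM in static culture on Day 12 and at 16.77 and 16.16 FPKM on Day 16. It was at 0.42 and 0.20 FPKM in P-DF on Day 12 and at 1.65 and 1.34 FPKM on Day 16. P-IWP2 held 5.50 (replicate 5) and 0.35 FPKM on Day 12 and 1.65 and 4.21 FPKM on Day 16, so that all passaged libraries lay below all static ones. The fall in P-DF was -4.86 ± 1.04 on Day 12 (29.1-fold lower, edgeR adjusted p = 0.0371) and -3.23 ± 0.94 on Day 16 (9.4-fold lower, edgeR adjusted p = 0.0469). Each of these calls held in 7 of 17 alternatives, and that over both days (-3.96 ± 0.34, edgeR adjusted p = 3.21e-05) in 16 of 16. In P-IWP2 on Day 16 it was -2.19 with an SE of 0.89 and was not called (edgeR adjusted p = 0.121), and without replicate 5 it was called at the same size (-2.19 ± 0.35, edgeR adjusted p = 0.000305).

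ITGA11, a receptor of fibrillar collagen in stromal cells (chr15:68296532-68432163, minus strand), was rarer. Static libraries held 0.52 and 0.43 FPKM on Day 12 and 1.67 and 1.39 FPKM on Day 16. Passaged libraries held 0.07 to 0.11 FPKM, apart from 0.23 FPKM in replicate 5. ITGA11 was lower in P-DF on Day 12 (-2.47 ± 0.47, edgeR adjusted p = 0.0254) and on Day 16 (-3.74 ± 0.46, 13.4-fold, edgeR adjusted p = 0.00146). In P-IWP2 it was lower on Day 16 (-3.79 ± 0.46, 13.8-fold, edgeR adjusted p = 0.00133) and over both days (-2.76 ± 0.53, edgeR adjusted p = 0.043). The call on Day 16 held under every alternative that was run, and the call over both days did not.

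The other collagen receptor chains differed from this pattern. ITGA2, at 0.27 to 0.72 FPKM, was higher in P-IWP2 on Day 16 (0.52 and 0.48 FPKM, against 0.32 and 0.31 FPKM in static culture and 0.28 and 0.27 FPKM in P-DF), by 0.95 ± 0.26 (1.93-fold, edgeR adjusted p = 0.0352). This call held in 7 of 17 alternatives. ITGA10, a receptor known from cartilage, ranged from 0.12 to 2.07 FPKM and was not called in any comparison. It was at 0.54 to 2.07 FPKM on Day 12 and at 0.12 to 0.66 FPKM on Day 16, and only without replicate 5 was it called lower on Day 16 in static culture, P-DF and P-IWP2 (log2 fold changes of -1.79, -1.83 and -2.11, with the highest edgeR adjusted p at 0.00225).

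ITGA8, which binds nephronectin and other RGD ligands and is known from mesenchyme and smooth muscle (chr10:15513954-15719922, minus strand), had the lowest fold changes of the members on both days in P-DF. It was at 6.88 and 8.57 FPKM (899 and 1027 counts) in static culture on Day 12 and at 8.31 and 9.25 FPKM (1161 and 1088 counts) on Day 16. P-DF held 0.15 FPKM in both libraries of Day 12 and 0.07 and 0.06 FPKM on Day 16, at 8 to 18 counts. P-IWP2 held 2.94 (replicate 5, 337 counts) and 0.08 FPKM on Day 12 and 0.02 and 0.07 FPKM, 2 and 10 counts, on Day 16. Static and passaged libraries did not overlap, and replicate 5 lay between them. The log2 fold changes were -5.58 ± 1.14 in P-DF on Day 12 (edgeR adjusted p = 0.0327), -6.84 ± 1.25 in P-DF on Day 16 (edgeR adjusted p = 0.00815) and -7.33 ± 1.30 in P-IWP2 on Day 16 (edgeR adjusted p = 0.00674). Such low counts set the size of these falls.

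Receptors of fibronectin and vitronectin changed less. ITGA5, the fibronectin receptor chain, was at 12.62 and 13.68 FPKM in static culture on Day 12, at 5.59 and 4.45 FPKM in P-DF and at 13.33 (replicate 5) and 5.67 FPKM in P-IWP2. By Day 16 it was at 14.77 and 13.04 FPKM in static culture, 10.98 and 11.13 FPKM in P-DF and 12.08 and 17.51 FPKM in P-IWP2. In P-DF, low levels on Day 12 were thus followed by levels closer to those of static culture on Day 16. ITGA5 rose between the days by 1.40 ± 0.32 in P-DF (2.63-fold, edgeR adjusted p = 0.0217) and by 1.10 ± 0.31 in P-IWP2 (edgeR adjusted p = 0.0306). In static culture the difference between the days was 0.20 ± 0.31 and was not called. The difference between these time courses was not called with all libraries (edgeR adjusted p = 0.297 for P-DF) and was called without replicate 5 (1.20 ± 0.26, edgeR adjusted p = 0.0132).

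ITGAV, a partner of several beta chains, had the highest FPKM of the alpha chains, 19.33 to 40.14, and made up 22.8% ± 1.8 (SD, n = 2) of the summed alpha chain FPKM in static culture and 34.6% ± 3.0 (SD, n = 2) in P-DF on Day 12. On Day 16 these shares were 29.0% ± 2.5 and 32.6% ± 2.4 (SD, n = 2), with a smaller gap. It was not called between static and passaged cells with all libraries, and it rose in P-IWP2 from Day 12 to Day 16 by 1.12 ± 0.22 (edgeR adjusted p = 0.00848). ITGA2B, the platelet chain, was at most at 0.27 FPKM and 25 counts, with 19 to 25 counts in static culture of Day 12 and replicate 5 and 1 to 10 counts elsewhere. It entered the test through the libraries in which it was high, so its call is a description. It was called lower in P-DF over both days (-1.42 ± 0.46, edgeR adjusted p = 0.0399), while the platelet lineage markers PF4, PPBP and GP9 summed to 0.0 FPKM in 10 of 12 libraries and to at most 0.14 FPKM.

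ITGA4 and ITGA9, receptors of VCAM1, fibronectin splice forms and tenascin, behaved differently from each other. ITGA4 was at 0 to 36 counts in 11 libraries and at 115 counts (0.69 FPKM) in replicate 5, and its call as lower in P-DF over both days (-2.36 ± 0.77, edgeR adjusted p = 0.0401) rests on 0 to 36 counts per library. It entered the test through libraries in which it was higher than in P-DF, so its call is a description. ITGA9 was at 3.08 and 3.25 FPKM in static culture on Day 12, at 1.59 and 0.39 FPKM in P-DF and at 2.76 (replicate 5) and 1.92 FPKM in P-IWP2. On Day 16 it was at 2.07 and 2.22 FPKM in static culture, 2.83 and 3.51 FPKM in P-DF, and 0.73 and 0.49 FPKM in P-IWP2, so the passaged treatments lay on opposite sides of static culture. Neither difference from static culture was called on that day with all libraries. ITGA9 rose over time in P-DF (1.93 ± 0.49, edgeR adjusted p = 0.0333) and fell in P-IWP2 (-1.53 ± 0.50, edgeR adjusted p = 0.0479), where the call was lost without replicate 5 (-1.36 ± 0.48). These calls held in 8 of 18 alternatives for P-DF and in 7 for P-IWP2.

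Most integrins of blood cells were close to absent, and ITGAE was not. ITGAL, ITGAM, ITGAX, ITGB2, ITGB6 (an epithelial chain) and ITGB7 did not pass the filter with all libraries. They held 0 to 13 counts in any library, with ITGAX at 0 counts in all 12. Leukocyte markers (PTPRC, CD14, CD68, SPI1 and CD3E) summed to at most 0.53 FPKM. A count of 0 allows up to 3 counts, which is 0.156 to 0.202 CPM (counts scaled by the library total), for counting error only. ITGAE, which pairs with ITGB7 on lymphocytes, was at 1.33 to 2.05 FPKM (137 to 250 counts) in every library and was not called in any comparison.

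Of the beta chains, ITGB1, the common partner of most alpha chains above, was the highest. It was between 39.83 and 42.98 FPKM in all 6 libraries of Day 12, with no order between the treatments. On Day 16 it was at 50.93 and 46.28 FPKM in static culture, 54.31 and 55.28 FPKM in P-DF and 62.23 and 76.42 FPKM in P-IWP2, in that order without overlap. ITGB1 was higher in P-IWP2 than in static culture by 0.79 ± 0.18 (1.73-fold, edgeR adjusted p = 0.0182). The difference of P-DF from static culture was 0.40 ± 0.18 and was not called (edgeR adjusted p = 0.158).

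ITGB5, a vitronectin receptor chain that pairs with ITGAV, was lower after passaging. It was at 20.46 and 20.58 FPKM in static culture on Day 12, at 10.60 and 12.02 FPKM in P-DF and at 9.27 (replicate 5) and 11.92 FPKM in P-IWP2, a fall of -0.77 ± 0.18 in P-DF (edgeR adjusted p = 0.045) and -0.96 ± 0.18 in P-IWP2 (edgeR adjusted p = 0.0319). Here replicate 5 lay with the passaged libraries. On Day 16 it was at 22.79 and 21.88 FPKM in static culture and at 14.01 to 16.55 FPKM in passaged cells, and the difference was not called on that day alone (edgeR adjusted p = 0.122 in P-DF and 0.452 in P-IWP2). The share of ITGB1 in the summed beta chain FPKM was 62.7 and 63.0% in static culture on Day 12 and 64.8 and 63.7% on Day 16, and that of ITGB5 was 29.0 to 30.1%. In passaged libraries these shares were 69.9 to 79.6% and 16.3 to 21.3%, with no overlap.

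ITGB8, which with ITGAV activates latent TGF-beta, was at 1.09 and 1.63 FPKM in static culture on Day 12 and at 1.56 and 2.21 FPKM on Day 16. Passaged libraries held 0.10 to 0.21 FPKM, but replicate 5 held 6.25 FPKM, the highest of all 12. The fall was -3.74 ± 1.12 in P-IWP2 on Day 16 (13.4-fold, edgeR adjusted p = 0.0486) and -3.14 ± 0.21 in P-DF over both days (8.8-fold, edgeR adjusted p = 7.34e-06). ITGB3, at 1.38 to 3.87 FPKM, was called only in P-DF over both days, higher by 0.44 ± 0.15 (edgeR adjusted p = 0.0426).

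The summed FPKM of alpha chains was 88.5 ± 2.1 (SD, n = 2) in static culture, 75.4 ± 0.6 in P-DF and 72.0 ± 5.9 in P-IWP2 on Day 12, and 104 ± 7.6, 82.5 ± 1.9 and 106 ± 16.1 on Day 16. Summed beta chains were 68.1 ± 0.2, 56.9 ± 0.5 and 57.2 ± 0.3 FPKM on Day 12 and 75.6 ± 4.2, 72.3 ± 0.3 and 88.3 ± 10.9 FPKM on Day 16. On Day 12 the passaged groups thus lay below static culture in both sums, and on Day 16 P-IWP2 did not. These sums were not tested.

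**Figure D3:**
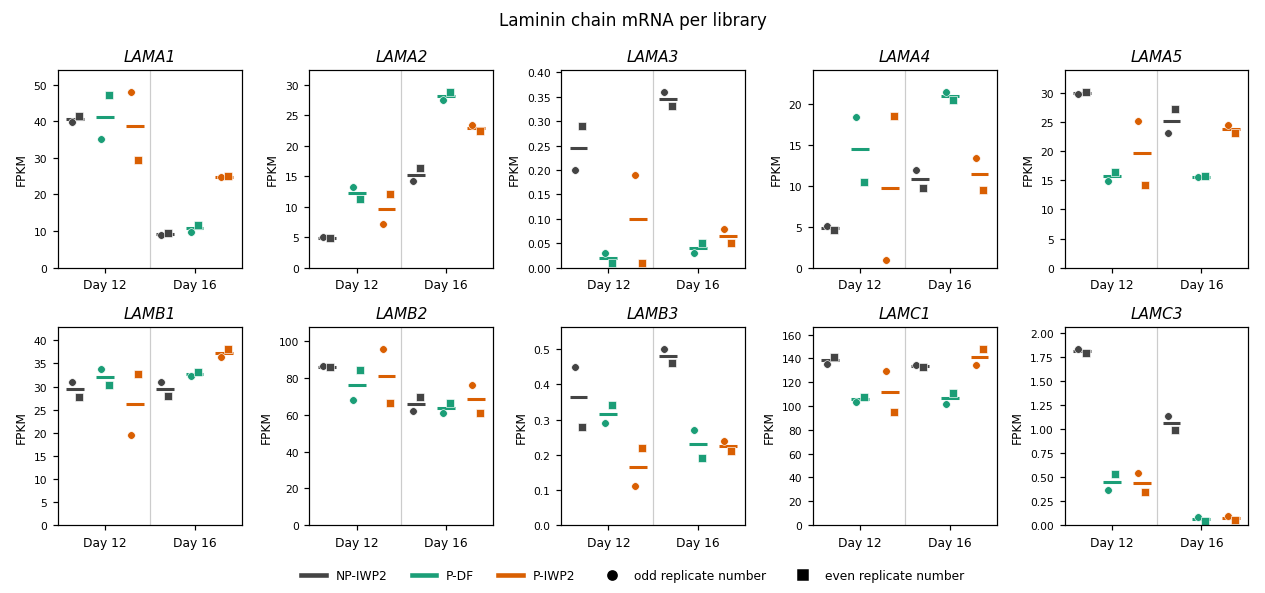
FPKM of the 10 laminin chains in each library (points) with the mean of each group of 2 (short lines), on axes that start at 0. LAMA2 is higher and LAMC3 and, replicate 5 excepted, LAMA3 are lower in passaged cells of both days. LAMA1 is lower on Day 16 than on Day 12 in static culture and P-DF, while P-IWP2 on Day 16 is at 24.72 and 24.93 FPKM, a difference between days that was not called.

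The laminin alpha chains, which bind the integrins, changed with both day and passaging. LAMA1, the embryonic chain (chr18:6941742-7117797, minus strand), was at 29.34 to 48.05 FPKM on Day 12, with all 3 treatments overlapping. On Day 16 it was at 8.85 and 9.54 FPKM in static culture, 9.87 and 11.78 FPKM in P-DF, and 24.72 and 24.93 FPKM in P-IWP2. LAMA1 fell over time in static culture (-2.03 ± 0.20, 4.09-fold, edgeR adjusted p = 0.00568) and in P-DF (-1.67 ± 0.20, 3.18-fold, edgeR adjusted p = 0.00159). In P-IWP2 the difference between the days was -0.21 ± 0.19 and was not called (edgeR adjusted p = 0.449). On Day 16 it was 3.28-fold higher in P-IWP2 than in static culture (1.71 ± 0.20, edgeR adjusted p = 0.00103), and this call held under every alternative that was run. The Day 12 replicates of P-IWP2 were at 48.05 (replicate 5) and 29.34 FPKM.

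LAMA2, the chain of muscle basement membranes (chr6:128883138-129516566, plus strand), was at 4.98 and 4.86 FPKM in static culture on Day 12 and at 14.21 and 16.25 FPKM on Day 16. P-DF held 13.26 and 11.18 FPKM and then 27.54 and 28.82 FPKM, and P-IWP2 held 7.08 (replicate 5) and 12.10 FPKM and then 23.34 and 22.42 FPKM. Passaged and static libraries did not overlap on either day, and every treatment was higher on Day 16 than on Day 12. Cardiomyocyte markers also summed higher in passaged than in static libraries of the same day, replicate 5 excepted, and their part was not tested. LAMA2 was higher for P-DF by 1.40 ± 0.27 on Day 12 (2.64-fold, edgeR adjusted p = 0.0264) and by 1.12 ± 0.27 on Day 16 (2.18-fold, edgeR adjusted p = 0.0231). For P-IWP2 on Day 16 it was 0.87 ± 0.27 (edgeR adjusted p = 0.0524), just above the threshold, and without replicate 5 it was called (0.87 ± 0.11, edgeR adjusted p = 7.19e-05). The rise over time was called in static culture (1.74 ± 0.27), P-DF (1.46 ± 0.27) and P-IWP2 (1.63 ± 0.27), with the highest edgeR adjusted p at 0.0212.

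LAMA4, known from vessels and also made by muscle, was at 5.08 and 4.55 FPKM in static culture on Day 12 and at 11.94 and 9.78 FPKM on Day 16. P-DF held 18.42 and 10.47 FPKM and then 21.49 and 20.48 FPKM. In P-IWP2 it was at 0.97 (replicate 5) and 18.51 FPKM on Day 12 and at 13.40 and 9.50 FPKM on Day 16. LAMA4 was called in P-DF over both days (1.42 ± 0.19, 2.68-fold, edgeR adjusted p = 0.000427). The endothelial markers PECAM1, CDH5 and TEK went the other way: TEK was at 10.05 to 11.48 FPKM in static culture, at 1.45 FPKM in replicate 5 and at 0.0 to 0.12 FPKM in the other passaged libraries. In P-DF over both days 3 of the 4 endothelial markers were called lower. KDR, which cardiac progenitors also express, made up most of their sum, at 156 to 233 FPKM on Day 12 outside replicate 5 (11.2 FPKM), and on Day 16 at 39.2 and 39.3 FPKM in static culture and 9.89 to 15.0 FPKM in passaged cells. Their part in LAMA4 was not tested.

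LAMA5, the broad epithelial and endothelial chain, was at 29.80 and 30.13 FPKM in static culture on Day 12 and at 14.92 and 16.46 FPKM in P-DF, with a log2 fold change of -0.85 ± 0.18 (1.8-fold lower, edgeR adjusted p = 0.0347). This call held in 6 of 17 alternatives, and that over both days (-0.65 ± 0.09, edgeR adjusted p = 0.000767) in 16 of 16. P-IWP2 held 25.04 (replicate 5) and 14.21 FPKM on that day. By Day 16 P-IWP2 was at 24.39 and 23.04 FPKM, near the 23.05 and 27.18 FPKM of static culture, while P-DF was at 15.49 and 15.73 FPKM. LAMA5 rose over time in P-IWP2 by 0.71 ± 0.18 (edgeR adjusted p = 0.0198), and without replicate 5 by 1.04 ± 0.13. LAMA3, an epithelial chain, was at 0.20 to 0.36 FPKM in static culture and at 0.01 to 0.08 FPKM in passaged libraries other than replicate 5 (0.19 FPKM), and was called in P-DF over both days (-3.02 ± 0.30, edgeR adjusted p = 8.38e-05). At 3 to 14 counts in P-DF, LAMA3 entered the test through other libraries in which it was higher, so its call is a description. Epithelial markers (EPCAM, CDH1, KRT8, KRT18 and KRT19) summed to 276 to 341 FPKM in static culture and to 114 to 334 FPKM in passaged libraries, and their part was not tested.

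**Figure D4:**
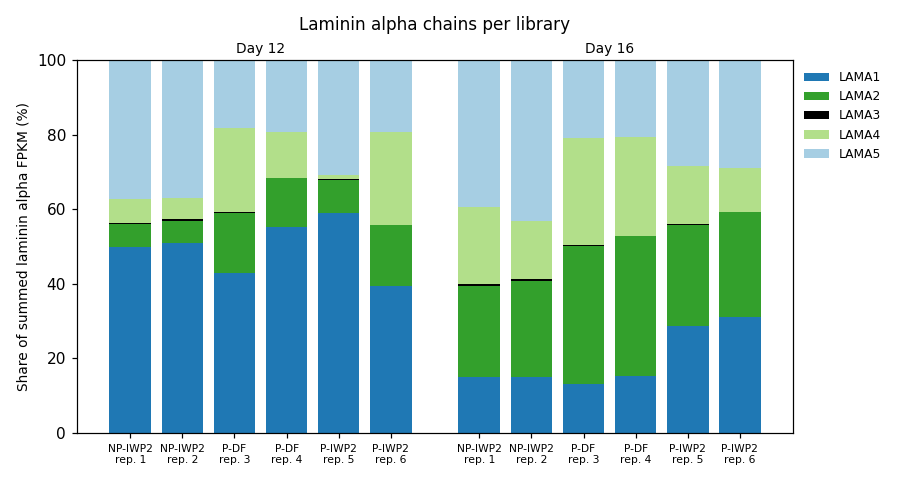
Share of each chain in the summed laminin alpha FPKM of a library, in percent, one bar per library. The LAMA1 share falls from 39.6 to 59.1% on Day 12 to 13.3 to 31.2% on Day 16, and P-DF on Day 16 has the largest LAMA2 share.

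As shares of the summed alpha chain FPKM, LAMA1 and LAMA5 together dominated static culture on Day 12, at 50.4% ± 0.8 and 37.2% ± 0.2 (SD, n = 2). In P-DF LAMA1 was at 49.2% ± 8.8 on that day, LAMA5 at 18.8% ± 0.7, LAMA4 at 17.4% ± 7.3 and LAMA2 at 14.7% ± 2.2. On Day 16 LAMA5 led in static culture (41.3% ± 2.6), LAMA2 in P-DF (37.3% ± 0.3), and in P-IWP2 LAMA1, LAMA5 and LAMA2 were at 30.0% ± 1.7, 28.6% ± 0.3 and 27.6% ± 0.6. The order of the chains depends on the unit: in read counts not divided by length, LAMA2 was first on Day 16 in all 3 treatments, at 38.6%, 53.5% and 41.0% in static culture, P-DF and P-IWP2. Per length, the LAMA1 share of P-IWP2 on Day 16 was above the 15.1% ± 0.02 of static culture and the 14.3% ± 1.5 of P-DF without overlap. Summed alpha chain FPKM was 60.7 ± 3.3, 75.6 ± 1.7 and 82.9 ± 4.2 in static culture, P-DF and P-IWP2 on Day 16. Counts per gene do not tell which trimers were made, and shares carry no test.

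Of the beta and gamma chains, which every trimer needs, 3 were abundant. LAMC1 had the highest FPKM of the members, 94.88 to 147.72, and the other abundant chains were LAMB2 at 60.91 to 95.80 FPKM and LAMB1 at 19.50 to 38.10 FPKM. LAMB2 was not called in any comparison, and neither was LAMB3, at 0.11 to 0.50 FPKM. LAMB1 was higher in P-DF over both days by 0.29 ± 0.09 (edgeR adjusted p = 0.0389). LAMC1 rose over time in P-IWP2 (0.76 ± 0.16, edgeR adjusted p = 0.0101).

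LAMC3, a gamma chain of restricted expression (chr9:131009174-131094473, plus strand), was the exception. It was at 1.83 and 1.79 FPKM in static culture on Day 12 and at 1.13 and 0.99 FPKM on Day 16. P-DF held 0.36 and 0.53 FPKM and then 0.08 and 0.04 FPKM. P-IWP2 held 0.54 (replicate 5) and 0.34 FPKM and then 0.09 and 0.05 FPKM. Static and passaged libraries were apart on both days, and here replicate 5 was among the passaged ones. LAMC3 was the only member called in all 4 comparisons by day: -1.94 ± 0.34 and -2.09 ± 0.34 on Day 12 (edgeR adjusted p = 0.0194 and 0.02), and -3.91 ± 0.41 and -3.66 ± 0.40 on Day 16 (edgeR adjusted p = 0.000653 and 0.000725) for P-DF and P-IWP2. At 6 to 15 counts in passaged libraries of Day 16, its fall of 15.1-fold in P-DF and 12.6-fold in P-IWP2 rests on few reads. Between static and passaged culture hepatic markers moved with it, at 369 to 755 FPKM in static culture and at 5.71 to 20.1 FPKM in passaged cells, replicate 5 included. Over time they moved the other way in each treatment. From Day 12 to Day 16 the hepatic sum rose from 508 and 369 to 755 and 614 FPKM in static culture. It rose from 6.27 and 5.71 to 14.05 and 14.89 FPKM in P-DF and from 7.88 and 8.07 to 20.07 and 16.19 FPKM in P-IWP2. The part of hepatic cells was not tested.

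Stromal and epicardial markers moved with ITGA1, ITGA8, ITGA11 and ITGB8. The stromal sum was 679 to 1215 FPKM in static culture and 18.0 to 30.6 FPKM in the 7 passaged libraries other than replicate 5. The epicardial sum (WT1, TBX18, TCF21, UPK3B and ALDH1A2) was 28.5 to 75.2 FPKM and 0.09 to 0.28 FPKM in the same libraries. Replicate 5 held 672 FPKM of stromal markers, near static culture of its day, and 134 FPKM of epicardial markers, above every static library. It is the library in which ITGA1, ITGA8 and ITGA11 lay between static and passaged levels and ITGB8 above both. On the log2(FPKM + 0.1) scale, replicate 5 differed from the static mean of Day 12 by -0.79 for ITGA1, -1.36 for ITGA8, -0.80 for ITGA11 and 2.15 for ITGB8, where replicate 6 differed by -4.42, -5.43, -1.75 and -2.21. ITGA4 was higher than static in replicate 5 by 2.85 on this scale. ITGA1 also differed among the other passaged libraries, at 4.21 FPKM in Day 16 P-IWP2 replicate 6 and 0.35 FPKM in Day 12 replicate 6, where the stromal sums were 29.6 and 30.6 FPKM. The former library had the highest sum of the smooth muscle markers MYH11, ACTA2, CNN1 and TAGLN, at 895 FPKM against 143 to 433 FPKM in the other 11. The part of these cells was not tested. For LAMA4, ITGA7 and ITGB3, replicate 5 was below static culture (-2.20, -1.44 and -1.15) and replicate 6 above it (1.92, 0.95 and 0.26).

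**Figure D5:**
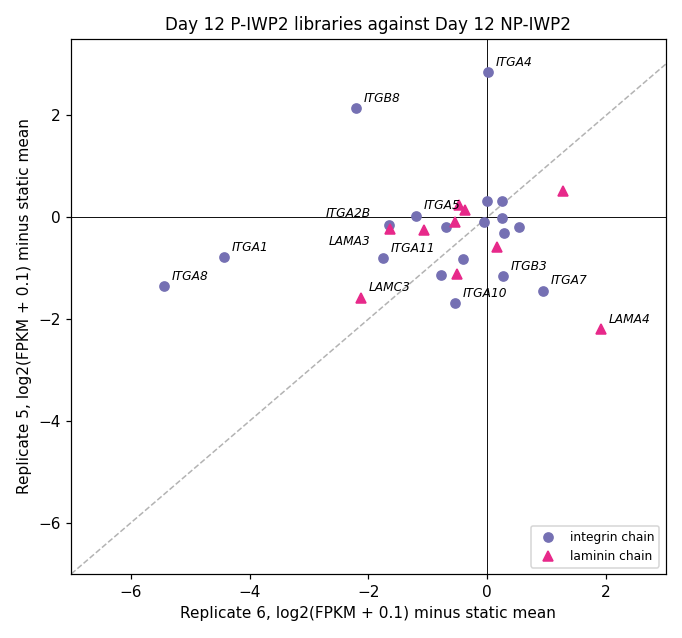
Difference from the Day 12 static mean on the log2(FPKM + 0.1) scale for the 29 members tested, replicate 6 of P-IWP2 on the horizontal and replicate 5 on the vertical axis. On the dashed line both replicates differ equally. ITGA8 (-5.43 and -1.36) and ITGB8 (-2.21 and 2.15) lie above it and LAMA4 (1.92 and -2.20) below it, while LAMC3 (-2.12 and -1.58) lies closer to it.

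Between Day 12 and Day 16, static culture had 1 member higher (LAMA2) and 1 lower (LAMA1), where 0.877% and 1.1% of all genes were called in these directions. P-DF had 4 higher (ITGA5, ITGA9, ITGB1 and LAMA2) and 2 lower (LAMA1 and LAMC3), beside 6.79% and 6.81% of all genes. P-IWP2 had 10 higher (ITGA3, ITGA5, ITGA7, ITGAV, ITGB1, ITGB5, LAMA2, LAMA5, LAMB1 and LAMC1) and 4 lower (ITGA8, ITGA9, ITGB8 and LAMC3), beside 12.9% and 14.1% of all genes. Of these rises, ITGA3 kept its call in 5 of 18 alternatives, ITGA7 and LAMB1 in 6 and the others in 12 to 17. The log2 fold change ranged from 1.17 to 3.84 for ITGA7 and from 0.49 to 1.48 for LAMB1. The falls of ITGA8 and ITGB8 in P-IWP2 (-4.57 ± 1.29 and -4.29 ± 1.14, edgeR adjusted p = 0.0304 and 0.0246) rest on replicate 5, and without it they were -0.60 and -0.57 and were not called. The rise of ITGA3 and the fall of ITGA9 were not called without it either. Without that library the members called were 9 of 30 in static culture, 12 in P-DF and 14 in P-IWP2, beside 17.1%, 29.2% and 23.7% of all genes. ITGB1 rose in P-DF by 0.66 ± 0.18 (edgeR adjusted p = 0.0409) and in P-IWP2 by 1.18 ± 0.18 (edgeR adjusted p = 0.00323), and this order was not tested.

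Whether passaging acted differently on the 2 days was asked with an interaction term. For P-DF, 0 members were called, beside 0.482% of all genes, and 3 members had an unadjusted p under 0.05 (DESeq2 called 2). For P-IWP2, LAMA1 alone was called, beside 1.84% of all genes (9 members had an unadjusted p under 0.05, and DESeq2 called 6). Its difference from static culture was 1.83 ± 0.28 higher on Day 16 than on Day 12 (edgeR adjusted p = 0.019). The shares of all genes given here belong to edgeR's adjusted calls. None is given for the unadjusted p or for DESeq2, so those counts cannot be read as a trait of the members. Without replicate 5, 4 members were called for P-DF (ITGA3, ITGA5, ITGA9 and LAMC3, beside 7.62% of all genes) and 7 for P-IWP2 (ITGA1, ITGA2B, ITGA5, LAMA1, LAMA4, LAMA5 and LAMC1, beside 7.89%).

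The passaged treatments were also set against each other, to see whether IWP2 altered the members once cells were passaged. The comparison on Day 16 alone was added after the values were seen. In edgeR, 0 members and 0.0% of all genes were called on Day 16, with 5 members at an unadjusted p under 0.05 and 2 called by DESeq2, and 0 members and 0.0% of all genes were called over both days, with 4 at an unadjusted p under 0.05 and 0 called by DESeq2. Shares of all genes are again not given for the unadjusted p or for DESeq2, so those counts are no trait of the members. The log2 fold change of P-IWP2 against P-DF on Day 16 was 1.24 ± 0.20 for LAMA1 (2.37-fold, edgeR adjusted p = 0.16), 0.65 ± 0.18 for LAMA5 (edgeR adjusted p = 0.423) and -2.35 ± 0.50 for ITGA9 (edgeR adjusted p = 0.312). Without replicate 5 all 3 were called (edgeR adjusted p = 0.00138, 0.00628 and 0.0114). An adjusted p above the threshold does not show that the treatments act alike.

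The neighbors of the members in adhesion were taken as 4 lists, of which the called genes with the 3 largest fold changes on Day 16 are named. The shares of all genes called higher and lower were 0.697% and 3.32% (P-DF) and 0.328% and 1.33% (P-IWP2) on Day 12, and 5.39% and 9.86%, and 7.15% and 9.95%, on Day 16. List counts without replicate 5 stand beside larger shares. In either direction these were 21.9% (P-DF) and 15.0% (P-IWP2) on Day 12, and 32.4% and 34.8% on Day 16. Of 31 focal adhesion adaptors and kinases, 0 were higher and 3 lower in P-DF and 0 and 2 in P-IWP2 on Day 12, and 3 and 8, and 4 and 4, on Day 16. Without replicate 5 these were 2 and 9, and 0 and 7, on Day 12 and 6 and 11, and 7 and 8, on Day 16. The tensin TNS2, which ties integrin tails to actin, was lower on Day 16 in P-DF and P-IWP2 (-2.84 ± 0.56 and -2.50 ± 0.54, edgeR adjusted p = 0.0108 and 0.0156), and TNS3 was lower in P-IWP2 (-0.96 ± 0.21, edgeR adjusted p = 0.0162). LIMS2, an adaptor of the integrin-linked kinase complex, was higher on Day 16 (1.23 ± 0.20 in P-DF and 1.46 ± 0.20 in P-IWP2, edgeR adjusted p = 0.00478 and 0.00222). FLNA, which links integrins to actin, was lower in P-DF on Day 16 (-1.83 ± 0.43, edgeR adjusted p = 0.0217).

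Of 19 other integrin ligands, 0 were higher and 5 lower in P-DF and 1 lower in P-IWP2 on Day 12, and 10 were lower and 0 higher in each on Day 16. Without replicate 5, 3 were higher and 10 lower in P-DF and 3 and 9 in P-IWP2 on Day 12, and 2 and 11 in each on Day 16. For Day 16 the median log2 fold change of this list was -2.25 (P-DF) and -1.85 (P-IWP2), beside -0.02 and -0.03 over all genes. TNC, the tenascin bound by ITGA8 and ITGA9, was lower on Day 16 in P-DF and P-IWP2 (-6.09 ± 1.27 and -7.42 ± 1.42, edgeR adjusted p = 0.0139 and 0.00929), and so was FBN1, a microfibril protein with an RGD motif (-6.35 ± 1.17 and -7.25 ± 1.23, edgeR adjusted p = 0.00847 and 0.00578). The thrombospondin THBS2 was lower in P-DF (-7.85 ± 1.18, edgeR adjusted p = 0.00483) and the elastic fiber protein EMILIN1 in P-IWP2 (-5.12 ± 0.86, edgeR adjusted p = 0.00549) on that day. Stromal markers, at 1177 and 1215 FPKM in static culture and 18.0 to 29.6 FPKM in passaged cells on Day 16, moved with these ligands, and their part was not tested.

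Of 11 basement membrane partners of laminin, 3 were lower in P-DF and 1 in P-IWP2 on Day 12, with 0 higher, and 1 higher and 4 lower, and 2 higher and 4 lower, on Day 16. Without replicate 5 these were 0 and 4 in each on Day 12 and 2 and 5, and 4 and 5, on Day 16. COL4A6, a type IV collagen chain, was lower in P-DF on both days (-1.23 ± 0.16 and -1.26 ± 0.16, edgeR adjusted p = 0.00479 and 0.00153), and SPARC, a collagen-binding matrix protein, was lower on Day 16 in P-DF and P-IWP2 (-3.03 ± 0.62 and -2.28 ± 0.60, edgeR adjusted p = 0.0125 and 0.0311). COL15A1, a collagen at the outer face of basement membranes, was lower on Day 16 as well (-9.78 ± 2.17 and -5.28 ± 1.35, edgeR adjusted p = 0.021 and 0.032). HSPG2, the proteoglycan perlecan, was higher in P-IWP2 on Day 16 (1.66 ± 0.28, edgeR adjusted p = 0.00594). Of 10 other laminin receptors and tetraspanins, 1 was lower in P-DF and 0 in P-IWP2 on Day 12, with 0 higher, and 1 higher and 3 lower, and 2 and 2, on Day 16. Without replicate 5 these were 1 and 3, and 1 and 1, on Day 12 and 4 and 3 in each on Day 16. The tetraspanin CD9, an integrin partner, was lower on Day 16 (-4.15 ± 0.60 and -3.31 ± 0.55, edgeR adjusted p = 0.00303 and 0.00537), as were SDC1, a syndecan (-1.80 ± 0.39 and -1.72 ± 0.38, edgeR adjusted p = 0.0156 and 0.0167), and, in P-DF, CD82 (-2.68 ± 0.61, edgeR adjusted p = 0.0196). DAG1, the laminin receptor dystroglycan of muscle, was higher in P-IWP2 (0.92 ± 0.23, edgeR adjusted p = 0.0278).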

How the data were processed

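RNA-seq of 12 H1 libraries was analysed in 6 groups of 2, taken from the labels. The authors trimmed reads with cutadapt 1.9.1, aligned them to hg38 with HISAT2 2.0.1 and counted them per gene with HTSeq 0.6.1, and they deposited raw read counts and FPKM values in 1 table. The deposited FPKM are the counts divided by exon length and library total. The depth was 14885589 to 19176239 counts per library, so 3 counts are 0.156 to 0.202 CPM. Counts were tested with edgeR 4.0.16 in R 4.3.3 (quasi-likelihood test, TMM, 19505 genes after filterByExpr) in 1 model of the 6 groups, or of 8 libraries with a day term for both days, with Benjamini-Hochberg adjustment over all genes tested. The tests were run on simulated data first. DESeq2 1.42.0, other scalings, no filter, smaller models, a replicate block and each library left out were alternatives. All 35 members are named, with full statistics for those called in at least 1 comparison, and of each pathway list the called genes with the 3 largest absolute log2 fold changes in each Day 16 comparison of passaged with static cells. The members and lists were chosen with earlier results of these data known. Gene coordinates are those deposited (hg38), and sequences came from RefSeq (GRCh38.p14).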

Additional observations from a re-analysis of the deposited data

Results flagged for a closer look

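LAMA1 was flagged because its difference between P-IWP2 and NP-IWP2 changed with the day by the interaction test. The log2 fold change was 1.83 ± 0.28 higher on Day 16 than on Day 12 (edgeR quasi-likelihood test, adjusted p = 0.019), and without Day 12 P-IWP2 replicate 5 it was 2.10 ± 0.22 (edgeR adjusted p = 0.000145). The call held in 12 of 18 alternatives. It was lost in the model of only the groups compared, without any 1 of the 4 static libraries and without Day 16 P-IWP2 replicate 6. All 4 libraries of P-IWP2 lay at 24.72 FPKM or above, while both static libraries of Day 16 lay below 10 FPKM.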

How the results depend on the processing

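Across alternatives, 67 called fold changes of members gave 1142 values, of which 840 kept direction and call, 302 kept direction only and 0 changed direction, and 19 of the 67 kept their call throughout. Fitting only the groups compared called 18 members in P-DF and 0 in P-IWP2 on Day 12, 18 and 15 on Day 16, 14, 13 and 0 over time in NP-IWP2, P-DF and P-IWP2, 4 for P-IWP2 against P-DF on Day 16, and 6 and 0 for the interactions of P-DF and P-IWP2. Without a filter on low counts these were 14 and 13, 13 and 14, 8 and 11 (NP-IWP2 and P-DF over time), 6, and 4 and 15, with 7 for P-IWP2 and 6 for P-IWP2 against P-DF over both days. DESeq2 called 5 in P-IWP2 on Day 12, 5 over time in NP-IWP2, 2 for P-IWP2 against P-DF on Day 16, 2 and 6 for the interactions and 7 for P-IWP2 over both days. Library totals without TMM called 9 over time in P-IWP2. They moved the median log2 fold change of all genes to -0.25 in P-DF and -0.31 in P-IWP2 on Day 16, and to -0.11, -0.28 and -0.49 over time in NP-IWP2, P-DF and P-IWP2, and no called member changed sign. The cause of these differences was not tested. Apart from the fit without replicate 5, shares of all genes called are not given for the alternatives of this section. Their counts of members thus cannot be read as a trait of the members.

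Leaving out 1 library at a time gave 0 to 16 calls in P-DF and 0 to 14 in P-IWP2 on Day 12, 2 to 18 and 3 to 18 on Day 16, 0 to 9, 1 to 12 and 2 to 20 over time in NP-IWP2, P-DF and P-IWP2, 0 to 3 for P-IWP2 against P-DF on Day 16 and 0 to 0 over both days, 0 to 4 and 0 to 18 for the interactions, and 13 to 18 and 0 to 14 for P-DF and P-IWP2 over both days. The highest counts came without Day 12 P-IWP2 replicate 5 or replicate 6, and a lone library was assumed to vary like the other groups. The 0 calls on Day 12 in P-DF came without either static library of Day 12 or without P-DF replicate 4. The LAMA1 share on Day 16 was 14.0%, 12.32% and 26.72% from read counts in place of FPKM for NP-IWP2, P-DF and P-IWP2, and 15.12 to 15.15%, 13.26 to 15.33% and 28.77 to 31.19% by library. On Day 12 it was 49.85 to 51.02%, 42.93 to 55.37% and 39.56 to 59.08%. With a replicate block over time, 2, 5 and 11 members were called, and 0 and 1 for the interactions. Libraries of 1 number did not deviate together across the days (correlations of 0.0754, -0.00154 and -0.031). Each correlation compares 1 pair of libraries per day, so it cannot decide whether libraries of 1 number share an origin. Changes of ITGA4, ITGA2B, LAMA3 and ITGB4 are limited by depth, with at most 115 counts in any library.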
